A study of Mus musculus with 15 samples.

Results

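The 8 genes described here carry out or control antigen presentation by major histocompatibility complex (MHC) class II molecules: H2-Aa, H2-Ab1, H2-Eb1, H2-DMa, H2-DMb1, Cd74, Ciita and Cd86. They were taken by symbol from a table of read counts for 26688 genes, and all 8 were found and passed the filter on low counts that left 15770 genes to test. The 15 libraries are poly(A)-selected RNA from joints of the forelimb, all of male, wild-type DBA/1 mice with a listed age of 8 weeks. Whether that is the age at the start of the study or at tissue collection is not settled here. The CIA+F20 group (n = 5) had collagen-induced arthritis (CIA) and was given the compound F20 by mouth once a day at 10 mg per kg for 21 days. The CIA group (n = 5) had the same arthritis and no F20, and its vehicle is not given in the sources used here. Both groups were immunized and boosted with bovine type II collagen in Freund's adjuvant and entered the study at an arthritis index above 5. The healthy group (n = 5) was not immunized, so it lacks the adjuvant as well as the arthritis. The tissue was the forearm, wrist and paw after removal of skin and most of the muscle, so that the joint capsule and synovium were sequenced together with the muscle that was left.

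Class II molecules are pairs of an alpha and a beta chain that display peptides from engulfed protein to CD4+ T cells, and they are made mainly by dendritic cells, B cells and activated macrophages. The pair is assembled with the invariant chain (Cd74), which blocks its groove until cathepsins degrade it, and H2-DM then exchanges the remaining fragment for a peptide. Ciita, the class II transactivator, binds no DNA itself and acts through a complex of RFX, CREB and NF-Y proteins on paired X and Y boxes in the class II promoters. Interferon gamma is the best known inducer of Ciita outside B cells and dendritic cells. CIA is itself linked to class II: susceptible strains such as DBA/1 carry the H-2q haplotype, whose H2-A molecule presents type II collagen. Strains with H-2q do not make the other classical molecule, H2-E. Their H2-Ea gene is defective, while H2-Eb1 can be transcribed.

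Of the 8 genes, 5 lie within the class II region of mouse chromosome 17 (GRCm39), between chr17:34338515-34358075 for H2-DMa on the plus strand and chr17:34524841-34535648 for H2-Eb1 on the plus strand. H2-DMb1 is at chr17:34372046-34379204 and H2-Ab1 at chr17:34476663-34488393, both on the plus strand, and H2-Aa is at chr17:34501718-34506797 on the minus strand. The following promoter stretches are shown because they carry the paired boxes through which Ciita is known to act. They come from the reference strain C57BL/6J, which has another class II haplotype than DBA/1, and are written 5′ to 3′ on the strand of the gene. Capitals mark GNNAC, the core of the X box, and GATTGG, the core of the Y box.
H2-Aa, GRCm39, chr17:34506835-34506884, minus strand: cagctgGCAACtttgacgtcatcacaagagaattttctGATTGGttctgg
H2-Ab1, GRCm39, chr17:34482118-34482166, plus strand: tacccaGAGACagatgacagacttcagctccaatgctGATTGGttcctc
H2-Eb1, GRCm39, chr17:34524744-34524792, plus strand: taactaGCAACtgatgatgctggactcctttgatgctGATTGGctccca
H2-DMa, GRCm39, chr17:34354482-34354531, plus strand: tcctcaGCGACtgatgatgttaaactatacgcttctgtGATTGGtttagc
H2-DMb1, RefSeq, GRCm38.p6, chr17:34153091-34153140, plus strand: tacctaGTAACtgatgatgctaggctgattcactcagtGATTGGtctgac

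Across these 5 stretches the 2 cores start 31 or 32 bases apart. The search covered 250 bases before the start of each gene's canonical transcript in GENCODE vM39, on both strands, and asked for the 2 cores with starts 30 to 33 bases apart. The stretches of H2-Ab1 and H2-DMa lie inside their gene records as the table gives them, ahead of the canonical start. The search found the pair in 4 of the 8 windows, those of H2-Aa, H2-Ab1, H2-Eb1 and H2-DMa, in each case on the strand of the gene. Of 18719 promoter windows of the same length, 0.807% held the pair on either strand and 0.417% on the strand of the gene. GATTGG alone was present in 16.6% of windows and GNNAC alone in 99.7%. The spacing and letters were set after the promoters of these genes had been read, so the comparison with other windows describes the pattern and tests nothing. The result also depends on the annotated start: the pair of H2-DMb1 appeared only in the RefSeq window and that of H2-DMa only in the GENCODE window. GATTGG, and so the pair, was not in the windows searched for Cd74, Ciita or Cd86.

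The other 3 genes lie elsewhere: Cd74 is on chromosome 18, and Ciita and Cd86 are on chromosome 16, at chr16:10297923-10346282 on the plus strand and chr16:36424231-36486443 on the minus strand. The reads of the 8 genes were counted in libraries of unequal depth. Total counts ran from 18627303 reads (healthy replicate 4) to 34247317 reads (healthy replicate 5). CIA+F20 libraries held 26482475 to 31936703 reads, CIA libraries 19487687 to 26670636, and the lowest healthy library was also the lowest of all. Levels are given as CPM, read counts scaled to a common library size, here after trimmed-mean (TMM) normalization. Whether every library is a different animal is not stated in so many words, and p-values therefore cover the variation among libraries, which may be technical. In healthy replicate 4 the 8 T cell markers summed to 77.6 CPM, against at most 2.61 CPM in the other healthy libraries, and healthy replicate 3 stood apart in neutrophil markers (334 CPM, against at most 50.8 CPM in the other healthy libraries).

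All 8 genes were higher in CIA than in healthy joints. The rise was 5.34-fold for H2-Aa and 5.04-fold for H2-Ab1, the chains of the classical H2-A molecule, and 1.98-fold for H2-DMa, the least of the 8. Of all tested genes, 26% were called higher and 19.5% lower at an edgeR adjusted p under 0.05, together 45.5%. The median log2 fold change of the 8 genes was 2.13, beside 0.07 over all tested genes. The groups did not overlap for 6 genes (H2-Aa, H2-Ab1, H2-Eb1, H2-DMb1, Cd74 and Ciita), where 11.7% of all tested genes were higher and 12.5% lower without overlap. In bulk tissue, more cells of a type and more RNA per cell cannot be told apart.

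Given F20, arthritic joints had lower levels of 6 of the 8 genes than CIA joints: H2-Aa, H2-Ab1, H2-DMb1, Cd74, Ciita and Cd86. Their falls lay between 1.80-fold (Cd86) and 2.49-fold (H2-DMb1). H2-Eb1 and H2-DMa had lower means that did not pass the test. Of all tested genes, 15.5% were called lower and 14.1% higher, together 29.6%, and the median log2 fold change was -0.97 for the 8 genes and -0.06 for all tested genes. Without overlap, 5 genes were lower (H2-Aa, H2-Ab1, H2-Eb1, H2-DMb1 and Cd74), where 5.32% of all tested genes were lower and 8.28% higher without overlap.

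None of the 8 genes was called between CIA+F20 and healthy joints, where edgeR called 0 of all tested genes (0%) at the adjusted threshold and 1388 at an unadjusted p under 0.05, 6 of the 8 among them. Yet the point estimates of all 8 were above the healthy level, with a median log2 fold change of 1.11, beside 0.01 for all tested genes. H2-Aa, H2-Ab1, H2-DMb1 and Cd74 were higher in every CIA+F20 library than in any healthy library, as were 1.98% of all tested genes, with 1.27% lower in every CIA+F20 library. DESeq2 called 3 of the 8 higher, H2-Aa, H2-Ab1 and Cd74, among 121 genes in all. Without healthy replicate 3, which had the highest healthy level of every gene but Cd86, edgeR called 2 of the 8, H2-Aa (1.42, adjusted p = 0.0394) and Cd74 (1.46, adjusted p = 0.0367), among 107 genes. A missed threshold does not show that F20-treated and healthy joints were alike.

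**Figure D1:**
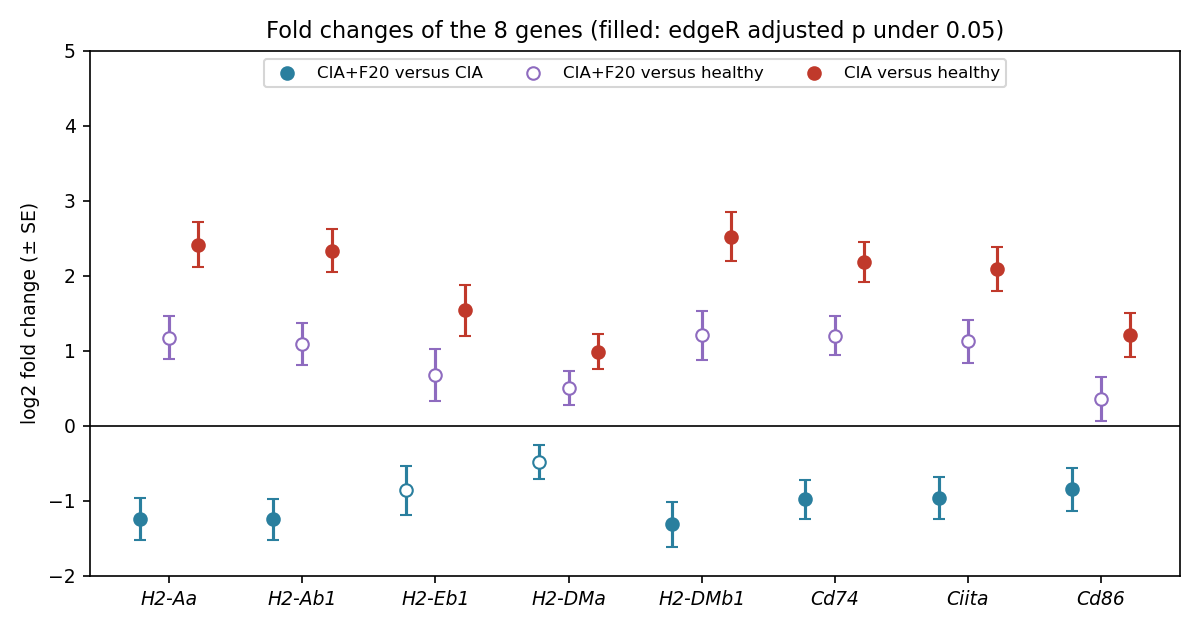
Fold changes of the 8 genes on a log2 scale, with standard errors, for CIA+F20 against CIA, CIA+F20 against healthy and CIA against healthy, from left to right at each gene. Filled points passed an edgeR adjusted p under 0.05: all 8 for CIA against healthy, 6 for CIA+F20 against CIA and none for CIA+F20 against healthy, where the open points lie between 0.36 and 1.21.

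Among the classical chains, H2-Aa, which encodes the alpha chain of H2-A, was at 16.6, 14.9, 15.6, 12.6 and 15.6 CPM in CIA+F20 replicates 1 to 5, at 29.7, 61.8, 32.0, 35.3 and 19.4 CPM in CIA replicates 1 to 5, and at 6.80, 6.91, 10.8, 4.07 and 4.67 CPM in healthy replicates 1 to 5. The 3 groups did not overlap, and within CIA replicate 2 was highest and replicate 5 lowest. The log2 fold change was 2.42 ± 0.29 (SE) for CIA against healthy (edgeR adjusted p = 0.000169) and -1.24 ± 0.28 for CIA+F20 against CIA (adjusted p = 0.0076). For CIA+F20 against healthy it was 1.17 ± 0.29 (adjusted p = 0.298).

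The beta chain gene H2-Ab1 ran in parallel. It was at 16.3, 16.9, 17.2, 15.4 and 16.7 CPM in CIA+F20, at 32.4, 67.8, 34.7, 38.9 and 22 CPM in CIA, and at 7.58, 9.63, 11.6, 4.53 and 5.33 CPM in healthy libraries. Again no group overlapped another, and the 5 CIA+F20 libraries lay close together. Their coefficient of variation was 4.11%, against 43.9% in CIA and 38.0% in healthy libraries. Fold changes on the log2 scale were 2.33 ± 0.29 for CIA against healthy (edgeR adjusted p = 0.000169), -1.25 ± 0.28 for CIA+F20 against CIA (adjusted p = 0.00692) and 1.09 ± 0.28 for CIA+F20 against healthy (adjusted p = 0.315).

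H2-Eb1, the beta chain of H2-E, was far lower, with 10 to 28 reads per CIA+F20 library, 29 to 60 per CIA library and 5 to 21 per healthy library. Its levels were 0.838, 0.409, 0.990, 0.571 and 0.954 CPM in CIA+F20, 1.52, 1.98, 1.11, 1.15 and 1.10 CPM in CIA, and 0.205, 0.613, 0.732, 0.290 and 0.463 CPM in healthy joints. Every CIA library was above every library of the other groups, while CIA+F20 and healthy libraries overlapped. The log2 fold change was 1.54 ± 0.34 for CIA against healthy (edgeR adjusted p = 0.00254). For CIA+F20 against CIA it was -0.86 ± 0.32 (adjusted p = 0.0575), and DESeq2 called that difference (adjusted p = 0.0294). Reads of DBA/1 class II alleles were aligned to another haplotype, and H2-Eb1 has a close copy, H2-Eb2, so its level is uncertain.

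Cd74, the invariant chain, was the most abundant of the 8. Its levels were 66.6, 61.5, 58.9, 61.2 and 70.2 CPM in CIA+F20, 99.1, 186, 102, 158 and 84.1 CPM in CIA, and 27.5, 30.2, 45.7, 17.0 and 18.0 CPM in healthy joints. The groups were fully separate. CIA exceeded healthy joints by 2.18 ± 0.27 on the log2 scale (edgeR adjusted p = 0.000175), and CIA+F20 differed from CIA by -0.98 ± 0.26 (adjusted p = 0.0146). By the fit CIA+F20 was 2.30-fold the healthy level (1.20 ± 0.26, adjusted p = 0.199).

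The exchange factor H2-DM has an alpha chain, H2-DMa, and a beta chain, H2-DMb1, and the 2 genes changed unequally. H2-DMa was at 6.44, 5.73, 4.95, 3.77 and 5.66 CPM in CIA+F20, at 7.42, 10.7, 6.33, 8.25 and 4.33 CPM in CIA, and at 4.30, 2.93, 4.77, 3.78 and 2.91 CPM in healthy joints. CIA overlapped healthy through CIA replicate 5 alone, which lay below healthy replicate 3. The log2 fold change was 0.99 ± 0.23 for CIA against healthy (edgeR adjusted p = 0.00352), -0.48 ± 0.23 for CIA+F20 against CIA (adjusted p = 0.114) and 0.51 ± 0.23 for CIA+F20 against healthy (adjusted p = 0.549). Without CIA replicate 5 the second of these was -0.63 and passed (adjusted p = 0.0263).

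H2-DMb1 was at 0.914, 1.15, 1.10, 0.856 and 1.50 CPM in CIA+F20, at 2.90, 3.53, 2.15, 3.59 and 1.56 CPM in CIA, and at 0.574, 0.545, 0.697, 0.349 and 0.199 CPM in healthy joints. No group overlapped another. Its log2 fold change was 2.52 ± 0.32 for CIA against healthy (edgeR adjusted p = 0.000215) and -1.31 ± 0.30 for CIA+F20 against CIA (adjusted p = 0.00811), the largest of the 8 in both. Against healthy joints CIA+F20 stood at 1.21 ± 0.33 (adjusted p = 0.315). H2-DMb1 has a near-identical neighbour, H2-DMb2, and reads can be split between them in counting, so each level is uncertain. H2-DMb2 had log2 fold changes of 2.22 ± 0.41 in CIA against healthy (edgeR adjusted p = 0.001) and -1.21 ± 0.39 in CIA+F20 against CIA (adjusted p = 0.0326).

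Ciita, the transactivator, was present at 32 to 73 reads per CIA+F20 library, 67 to 148 per CIA library and 13 to 39 per healthy library. It was at 2.09, 2.25, 1.13, 1.74 and 2.49 CPM in CIA+F20, at 3.92, 4.89, 2.57, 5.14 and 2.38 CPM in CIA, and at 0.656, 0.749, 1.36, 0.755 and 0.894 CPM in healthy joints. CIA and healthy libraries were separate, CIA+F20 reached into the CIA range through replicate 5, and CIA+F20 replicate 3 fell below healthy replicate 3. The log2 fold change was 2.09 ± 0.29 for CIA against healthy (edgeR adjusted p = 0.000259), -0.96 ± 0.28 for CIA+F20 against CIA (adjusted p = 0.0209) and 1.12 ± 0.29 for CIA+F20 against healthy (adjusted p = 0.315). The second call was lost without CIA replicate 2 (adjusted p = 0.0563) or CIA replicate 4 (adjusted p = 0.0511).

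Cd86, a ligand on the surface of antigen-presenting cells that costimulates T cells through CD28, is not a class II gene. It was at 1.26, 0.900, 1.20, 1.40 and 1.60 CPM in CIA+F20, at 2.72, 3.17, 1.57, 2.33 and 1.70 CPM in CIA, and at 1.23, 1.60, 0.871, 0.639 and 0.596 CPM in healthy joints. Both immunized groups overlapped the healthy range, and CIA+F20 replicate 5 lay above CIA replicate 3. The log2 fold change was 1.21 ± 0.29 for CIA against healthy (edgeR adjusted p = 0.00424), -0.85 ± 0.28 for CIA+F20 against CIA (adjusted p = 0.0375) and 0.36 ± 0.29 for CIA+F20 against healthy (adjusted p = 0.824). The call between CIA+F20 and CIA was the least stable of the 6: it was lost without any 1 of CIA replicates 1, 2 and 4 or CIA+F20 replicates 1 to 4, with adjusted p between 0.0627 and 0.0992.

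**Figure D2:**
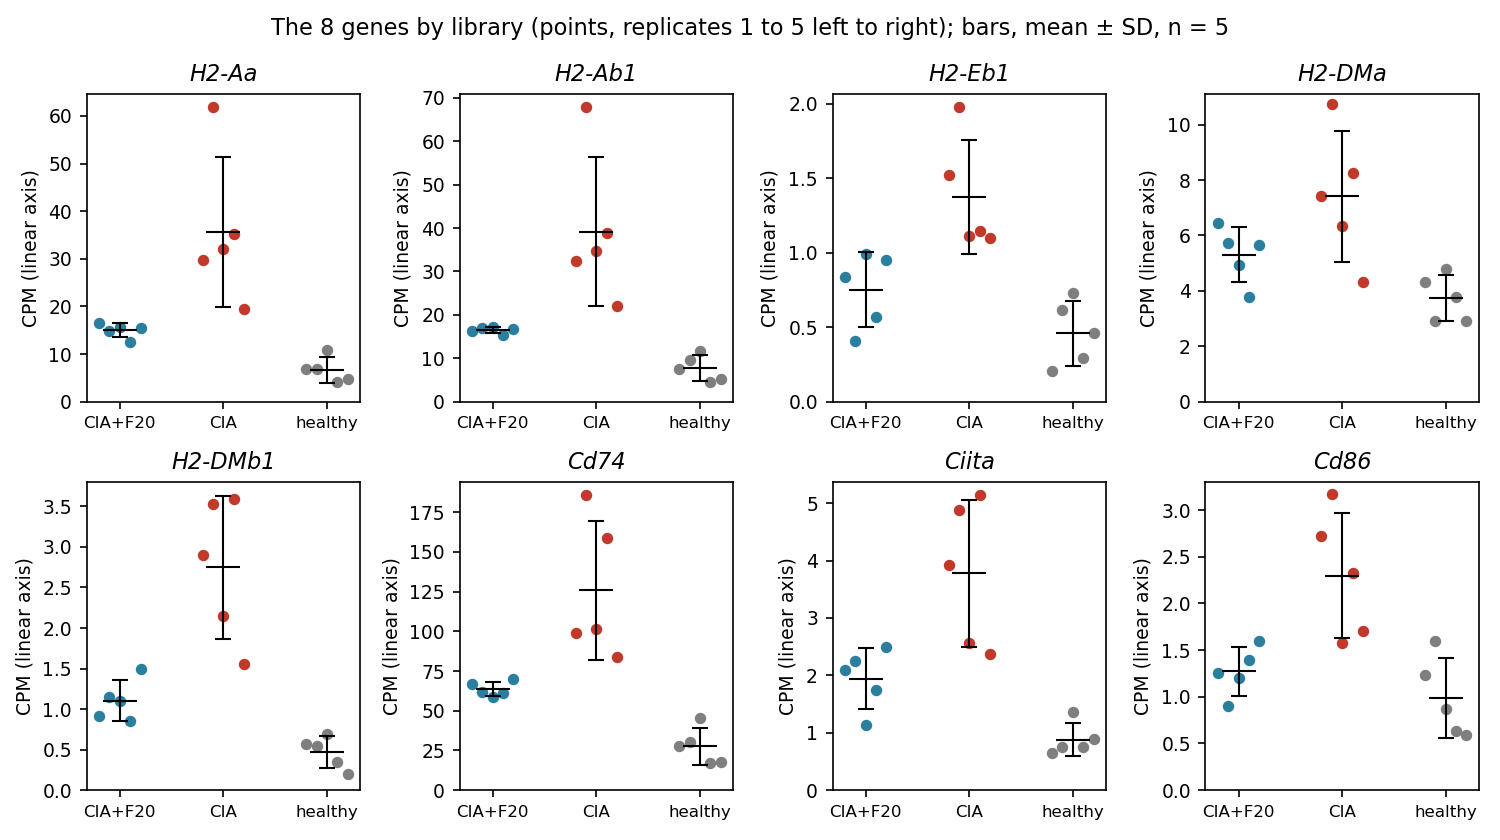
Level of each of the 8 genes in CPM (linear axes from 0) in every library of the CIA+F20, CIA and healthy groups, with mean and SD (n = 5 each). H2-Aa, H2-Ab1, H2-DMb1 and Cd74 show 3 separate groups with CIA+F20 between CIA and healthy, while H2-DMa and Cd86 overlap.

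Because the 8 genes were read from the same libraries, their balance can be measured without depth scaling, as the difference of log2 CPM between 2 genes in 1 library. The alpha and beta chains of H2-A kept nearly the same ratio: H2-Ab1 minus H2-Aa averaged 0.14 ± 0.12 in CIA+F20, 0.14 ± 0.02 in CIA and 0.21 ± 0.15 in healthy joints (SD, n = 5 each). The differences between groups were -0.07 for CIA against healthy, -0.004 for CIA+F20 against CIA and -0.08 for CIA+F20 against healthy, and none passed (smallest exact permutation p = 0.325, two-sided).

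H2-DMa went another way. Its log2 CPM minus that of H2-Aa was -1.36, -1.37, -1.64, -1.72 and -1.45 in CIA+F20, -1.99, -2.52, -2.32, -2.09 and -2.14 in CIA, and -0.65, -1.22, -1.17, -0.10 and -0.67 in healthy libraries. The 3 groups did not overlap, with healthy joints holding the most H2-DMa per H2-Aa and CIA the least. The difference was -1.45 for CIA against healthy, 0.70 for CIA+F20 against CIA and -0.75 for CIA+F20 against healthy. Each had the smallest p that 5 against 5 libraries allow in a two-sided exact permutation test (0.00794), and an adjusted p of 0.0381 over the 24 ratio tests. A pass at that p takes 4 of the 24 tests reaching it, and 5 did. All 5 were ratios with H2-DMa, either to H2-Aa or to H2-DMb1, so these passes depend on one another. The call for CIA+F20 against healthy was lost without any 1 CIA+F20 library (adjusted p of up to 0.0952 in the exact test). Even so, every CIA+F20 library that was left lay below every healthy one. Of the 6 other genes set against H2-Aa, none passed in any comparison, although Cd86 (-1.19) and H2-Eb1 (-0.89) had an adjusted p of 0.0847 in the exact test for CIA against healthy.

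Within H2-DM, the log2 difference of H2-DMb1 minus H2-DMa was -2.72, -2.25, -2.10, -2.05 and -1.86 in CIA+F20, -1.33, -1.58, -1.53, -1.18 and -1.43 in CIA, and -2.76, -2.28, -2.65, -3.19 and -3.45 in healthy libraries. CIA was above both other groups without overlap. The shift was 1.45 for CIA against healthy and -0.79 for CIA+F20 against CIA, each with an exact permutation p of 0.00794 (adjusted p = 0.0381). The second call was lost without CIA replicate 4 (exact test, adjusted p = 0.0762), with the CIA and CIA+F20 libraries still separate. For CIA+F20 against healthy it was 0.67 and failed the correction (exact p = 0.0317, adjusted p = 0.0847). The H2-DMa gene record overlaps Brd2, a chromatin reader on the other strand, whose mean level was 129 CPM in CIA+F20, 155 CPM in CIA and 116 CPM in healthy joints. Brd2 rose by 0.41 ± 0.10 on the log2 scale in CIA against healthy (edgeR adjusted p = 0.00461), the strand setting of the counting is not given in the sources used here, and its part in the H2-DMa count was not tested.

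**Figure D3:**
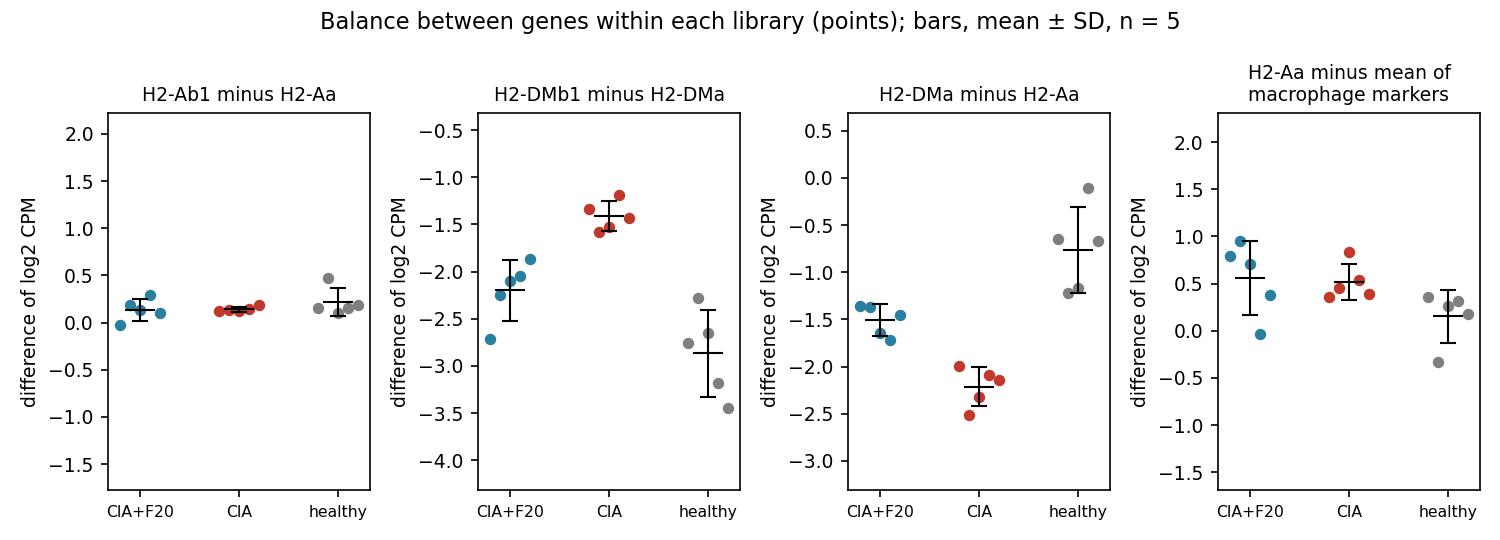
Differences of log2 CPM between genes within each library (points), with mean and SD (n = 5 each), for CIA+F20, CIA and healthy libraries. H2-Ab1 minus H2-Aa overlaps across groups, H2-DMa minus H2-Aa lies lowest in CIA (mean -2.21) and highest in healthy joints (mean -0.76), H2-DMb1 minus H2-DMa is highest in CIA, and H2-Aa minus the mean of the macrophage markers overlaps between CIA+F20 and CIA.

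To set levels of different genes side by side, CPM was divided by the length in kilobases of the canonical transcript. In CIA joints Cd74 stood first at 87.9 ± 30.6 CPM per kilobase (SD, n = 5), followed by H2-Ab1 at 32.3 ± 14.2 and H2-Aa at 31.6 ± 14. These SDs are spreads between libraries and do not measure the difference between genes of the same library, which was not tested on this scale. H2-DMa followed at 6.44 ± 2.06 and H2-DMb1 at 1.96 ± 0.63. Cd86 (0.843 ± 0.247) and H2-Eb1 (0.809 ± 0.226) had close means, and Ciita was last at 0.505 ± 0.171. In CIA+F20 joints the length-scaled level was 44.5 ± 3.23 for Cd74, 13.6 ± 0.560 for H2-Ab1 and 13.3 ± 1.34 for H2-Aa, against 0.259 ± 0.0705 for Ciita. Healthy joints had the same first 3 genes, with 19.3 ± 8.11 for Cd74, 6.38 ± 2.43 for H2-Ab1 and 5.89 ± 2.34 for H2-Aa. The canonical transcript of Ciita is 7483 bases long, and a shorter isoform would raise its length-scaled level.

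**Figure D4:**
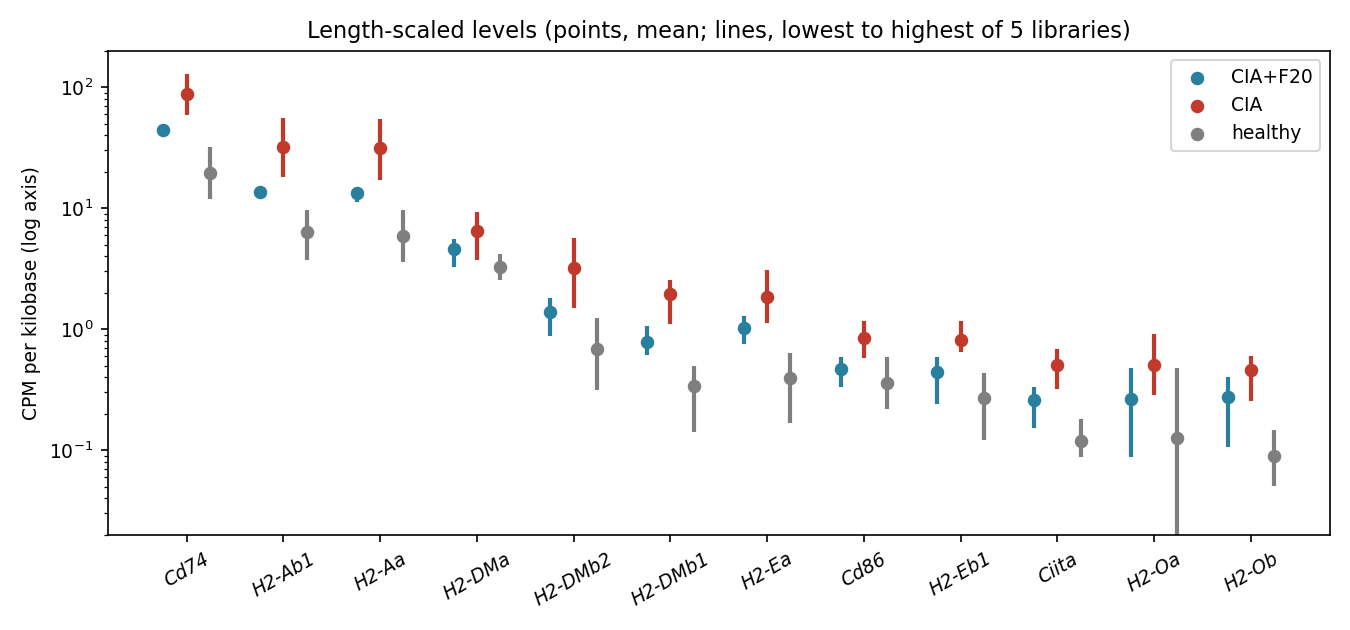
Mean length-scaled level (CPM per kilobase, log axis) of the 8 genes and 4 related class II genes in CIA+F20, CIA and healthy joints, with lines from the lowest to the highest library (n = 5 each). Cd74 is highest in every group; the healthy line of H2-Oa runs off the axis because its lowest library had no read.

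The other tested class II genes rose in CIA too. H2-Ea, H2-DMb2, H2-Oa and H2-Ob, the last 2 being the chains of H2-O, which restrains H2-DM, were all called higher in CIA than in healthy joints (4 of 4 tested), with a median log2 fold change of 2.22. The share called higher over all tested genes was 26%. H2-Ea, the gene whose H-2q allele yields no protein, averaged 1.06 ± 0.22 CPM in CIA+F20, 1.94 ± 0.95 CPM in CIA and 0.415 CPM in healthy joints, and its log2 fold change for CIA against healthy was 2.18 ± 0.38 (edgeR adjusted p = 0.000686). For CIA+F20 against CIA 1 of 4 passed, H2-DMb2, which was lower, beside 15.5% of all tested genes called lower. H2-Ob had -0.73 ± 0.36 in that comparison (edgeR adjusted p = 0.128). H2-Eb2 was under the filter.

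Genes that process antigen and the invariant chain were called higher in CIA in 6 of 9 and lower with F20 in 5 of 9. Of all tested genes, 26% were called higher in CIA against healthy and 15.5% lower in CIA+F20 against CIA. Ctss, the cathepsin that makes the last cuts in the invariant chain, was at 20.3, 11.5, 18.2, 26.8 and 23.1 CPM in CIA+F20, at 62.9, 129, 46.7, 64.5 and 52.4 CPM in CIA, and at 7.38, 10.3, 12.2, 8.37 and 5.06 CPM in healthy joints. CIA was above all other libraries, and CIA+F20 met the healthy range only in replicate 2. Its log2 fold change was 3.03 ± 0.32 for CIA against healthy (edgeR adjusted p = 0.000139) and -1.83 ± 0.30 for CIA+F20 against CIA (adjusted p = 0.00266). Ifi30, a thiol reductase that unfolds antigen in endosomes, had 1.55 ± 0.22 and -1.21 ± 0.21 in these comparisons (edgeR adjusted p = 0.000259 and 0.00321). Marchf1, a ubiquitin ligase that removes class II from the surface, rose by 2.69 ± 0.48 in CIA (edgeR adjusted p = 0.000791), and its -1.16 ± 0.44 with F20 did not pass (adjusted p = 0.0604).

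Of 9 tested genes of the promoter complex, which are RFX, NF-Y and CREB genes and the coactivators Crebbp and Kat2b, 2 were called in CIA against healthy joints: 1 was higher in CIA (Rfx5, an RFX subunit, 0.68 ± 0.17, edgeR adjusted p = 0.00593) and 1 lower (Nfyc, an NF-Y subunit, -0.26 ± 0.10, adjusted p = 0.0454). For CIA+F20 against CIA edgeR called 0 of the 9, with 2 at an unadjusted p under 0.05, and DESeq2 called 1. Both edgeR counts are below the shares over all tested genes, 45.5% in CIA against healthy and 29.6% in CIA+F20 against CIA. Of 8 tested genes leading from interferon gamma to Ciita, 4 were higher in CIA against healthy joints: Irf1, Ifngr1, Socs1 and Usf1. With F20, 3 of the 8 fell against CIA: Ifngr1, Irf1 and Socs1. These 2 counts are near the shares of all tested genes called in either direction, 45.5% and 29.6%. In the same direction alone, the shares of all tested genes were 26% and 15.5%. Irf1, an interferon-induced transcription factor, was at 18.9, 21.5, 17.5, 14.6 and 15.03 CPM in CIA+F20, at 25.3, 23.3, 21.2, 29.4 and 20.5 CPM in CIA, and at 14.2, 12.9, 15.7, 20.2 and 13.3 CPM in healthy joints. Every CIA library was above every healthy one, while CIA+F20 overlapped both other groups. Irf1 rose by 0.65 ± 0.15 in CIA against healthy (edgeR adjusted p = 0.00279) and was lower in CIA+F20 than in CIA, at -0.45 ± 0.14 (adjusted p = 0.0318). Ifng itself had 0 to 2 reads in CIA+F20, 0 to 5 in CIA and 0 or 1 in healthy libraries and was not tested.

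Of 8 tested costimulation genes, 4 were called in CIA against healthy joints, a share near the 45.5% of all tested genes. Cd40, Cd83 and Icosl were higher in CIA and Ctla4 was lower. With F20, 1 of the 8 was called against CIA, Cd83, which was lower, beside 29.6% of all tested genes. Cd80, the close relative of Cd86 that binds the same receptors, averaged 1.52 ± 0.26 CPM in CIA+F20, 1.70 ± 0.89 CPM in CIA and 1.48 CPM in healthy joints, and its log2 fold change for CIA against healthy was 0.19 ± 0.28 (edgeR adjusted p = 0.613). Ctla4 was at 3.54 CPM in healthy replicate 4, the library with the high T cell markers, and at most at 0.662 CPM in the other healthy libraries.

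**Figure D5:**
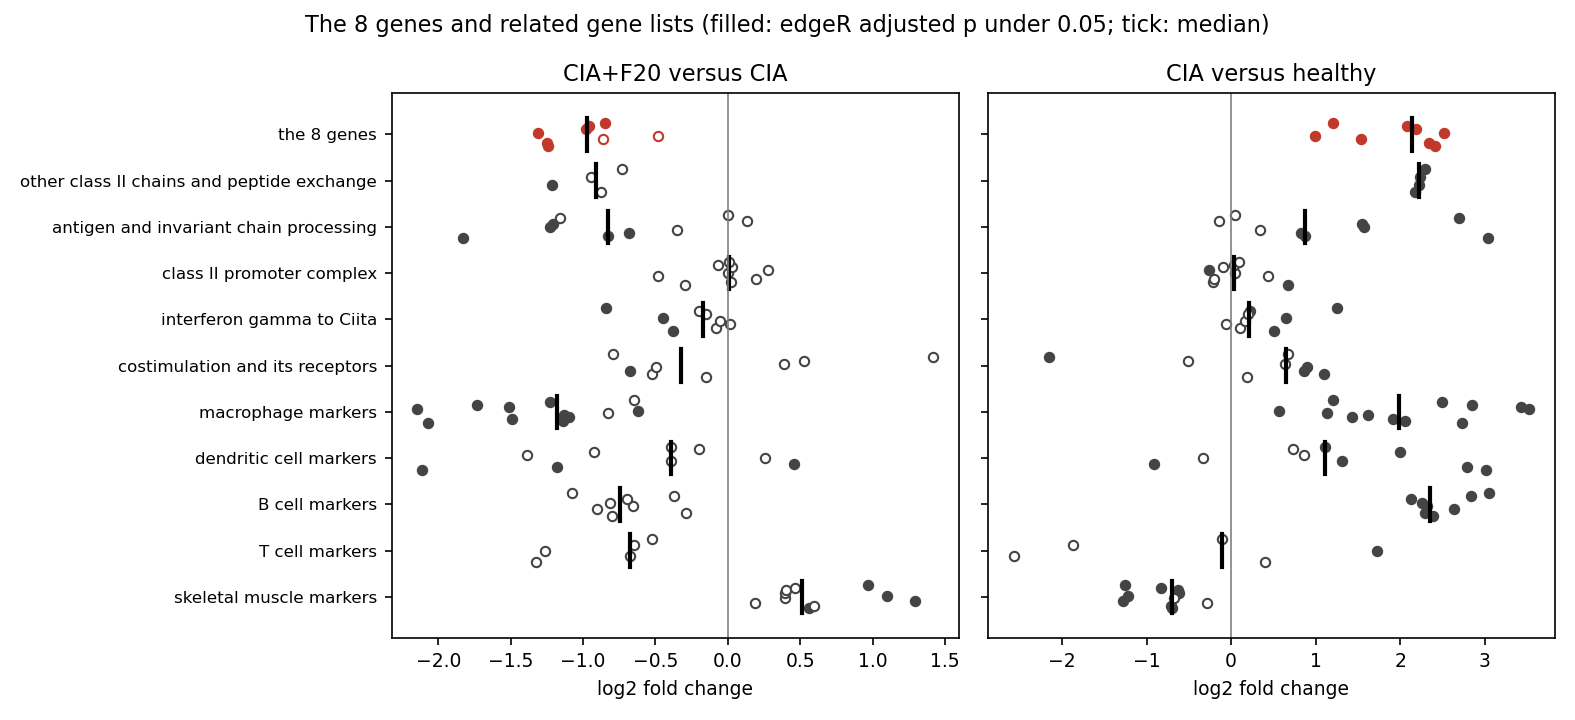
Log2 fold changes of the 8 genes and of the tested genes of each related list, 1 panel per comparison. Filled points passed an edgeR adjusted p under 0.05 and ticks mark list medians: the promoter complex lies around 0 in CIA against healthy, and the macrophage and B cell markers lie to the right of it.

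Of the markers of cells that carry class II, most of those of macrophages were called in the direction of the 8 genes in CIA against healthy and in CIA+F20 against CIA, and those of B cells in CIA against healthy. All 12 macrophage markers were called higher in CIA than in healthy joints, and 10 were lower in CIA+F20 than in CIA. Beside these and the following counts, 26% of all tested genes were called higher and 19.5% lower in CIA against healthy. For CIA+F20 against CIA the shares were 15.5% lower and 14.1% higher. Their summed level was 288 to 475 CPM in CIA+F20, 466 to 1192 CPM in CIA and 90.0 to 322 CPM in healthy libraries. All 8 B cell markers were higher in CIA (summed 11.7 to 32.3 CPM in CIA+F20, 12.7 to 83.6 CPM in CIA and 2.32 to 17.5 CPM in healthy libraries) and for CIA+F20 against CIA edgeR and DESeq2 each called 0 of 8, with 0 at an unadjusted edgeR p under 0.05. Their median log2 fold change in that comparison was -0.75, beside -0.97 for the 8 genes, so the lack of calls does not show that they stayed level. Of 9 tested dendritic cell markers, 5 rose and 1 fell in CIA, and 2 fell and 1 rose with F20. The share called with F20 was near the 29.6% of all tested genes. Itgax, an integrin of dendritic cells and macrophages, was among those that rose (3.02 ± 0.36, edgeR adjusted p = 0.000169), and Zbtb46, a transcription factor of dendritic cells and endothelium, was the one that fell (-0.91 ± 0.14, edgeR adjusted p = 0.00038). Neutrophil markers (7 of 7) and erythroid and marrow markers (7 of 7) were higher in CIA than in healthy joints, as were 1 of 5 T cell markers and 1 of 8 synovial and connective tissue markers. In these 4 lists edgeR called 0 genes for CIA+F20 against CIA, with 2, 0, 1 and 1 at an unadjusted p under 0.05, and DESeq2 called 1 synovial gene. The median log2 fold changes of the 4 lists there were -1.42, -0.99, -0.68 and -0.88 in the same order, so they too cannot be called unchanged. The part of each of these cell types in the levels of the 8 genes was not tested. Skeletal muscle markers ran against the 8 genes, with 8 of 10 lower in CIA and 4 of 10 higher with F20 (summed 81966 to 101873 CPM in CIA+F20, 40022 to 85280 CPM in CIA and 92353 to 107489 CPM in healthy libraries).

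Each gene was also set against the macrophage markers of its own library, as its log2 CPM minus the mean log2 CPM of the 12 markers. None of the 8 passed the correction over 24 tests, and 5 against 5 libraries leave little room for a pass. A lone test at the smallest possible exact p has an adjusted p of 0.19, a pass at that p takes 4 of the 24 tests reaching it, and 1 did. Without correction, 4, 2 and 1 of them had an unadjusted exact permutation p under 0.05 in CIA against healthy, CIA+F20 against CIA and CIA+F20 against healthy. H2-Aa, 1 of the 4, was at 0.79, 0.95, 0.71, -0.04 and 0.38 in CIA+F20, at 0.36, 0.45, 0.84, 0.54 and 0.39 in CIA, and at 0.35, -0.33, 0.26, 0.31 and 0.18 in healthy libraries. Every CIA library was above every healthy one, by 0.36 on average (exact permutation p = 0.00794, adjusted p = 0.127, two-sided). For CIA+F20 against CIA the difference of H2-Aa was 0.04 (exact p = 0.873). H2-DMa and Cd86 lay below the markers' rise in CIA against healthy, by -1.09 and -0.82 (exact p = 0.0238 and adjusted p = 0.127 for each). The choice of marker mattered: with Cd68 alone in place of the list, 4 of the 8 differed in CIA against healthy and 8 in CIA+F20 against CIA. Relative to Cd68 the 4 were lower in CIA and the 8 were higher in CIA+F20, so they changed less than Cd68 did. Cd68 had the lowest edgeR p of the 12 markers in both comparisons. Cd68, a lysosomal protein, averaged 6.82 ± 0.995 CPM in CIA+F20, 28.7 ± 10.1 CPM in CIA and 4.33 ± 1.21 CPM in healthy joints.

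Fitted with the muscle marker score as a covariate, 4 of the 8 genes were called in CIA against healthy (H2-Aa, H2-Ab1, H2-DMb1 and Cd74) among 315 of all tested genes, and 0 of 8 for CIA+F20 against CIA among 1 gene in all. The score differed between the groups, so the part of the tissue mix and that of the condition cannot be told apart in that fit.

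The genes whose profile over the 15 libraries was closest to that of H2-Aa, by root mean square difference of centred log2 CPM among 14188 genes, were Apobec1 (0.222), Fcgr2b (0.280), Cyth4, Smim3 and Ly86, beside a median of 1.08 over all genes compared. Of the 8, H2-Ab1 (0.105) and Cd74 (0.189) were closer to H2-Aa than any of these, and H2-DMa (0.652) and Cd86 (0.638) were the farthest. Closest to Ciita were Pou2f2 (0.205), then Unc93b1, Tmem164, Inpp5d and Soat1. Closest to Cd86 were Tmem158 (0.249), P2rx4, Grn, Gm2a and Mcub.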

How the data were processed

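Messenger RNA-seq counts of 15 joint libraries were used. The deposited values are raw read counts per gene, made by the authors with fastp 0.23.2, HISAT2 2.2.1 and featureCounts 2.0.3 on GRCm39, per the submitters' processing notes. Not given in the sources used here are the annotation release, strandedness and the use of multi-mapping reads. Libraries were grouped by title. The genes and related lists were chosen with earlier results of these data known.

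Counts were tested in R 4.3.3 with edgeR 4.0.16: TMM scaling, filterByExpr (minimum count 10), 3 groups in 1 quasi-likelihood fit, and Benjamini-Hochberg adjustment over 15770 genes at 0.05, with 10918 genes under the filter. Errors of log2 fold changes come from the F statistic, and log2 CPM used a prior count of 2. Genes varied between replicates by 27.8% (biological coefficient of variation). The fit was first tested on simulated data. Ratios between genes were compared by exact permutation (252 assignments; Python 3.11.15, numpy 2.4.6), in 2 families of 24 tests. Lengths and promoters came from GENCODE vM39, and 1 promoter from the RefSeq table. Fold changes of low genes such as H2-Eb1 rest on few reads. Their relative counting error is least where the gene has most reads, for H2-Eb1 in the CIA libraries (29 to 60 reads). Named outside the 8 were up to 3 genes per list with the lowest p in either of 2 contrasts, H2-Ea, H2-DMb2, H2-Oa, H2-Ob, Ctss, Ifi30, Ifng, Irf1, Rfx5, Cd80 and Cd40, and the 5 nearest profiles of H2-Aa, Ciita and Cd86. Brd2, Crebbp and Kat2b, and Usf1, H2-Eb2 and Ctla4 where a count of 5 or fewer was spelled out, were named after their values were seen. The rule and the lists held 1 more gene, which is not reported here. Alternatives were DESeq2 1.42.0, other size factors, no filter, 2 groups only, the replicate number as a block, muscle-related scaling and covariate, another prior count or marker, and leaving out libraries. No 2 libraries were duplicates: chi-square per gene was 21.98 to 271.9 over 30 pairs within groups.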

Additional observations from a re-analysis of the deposited data

Results flagged for a closer look

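For each of the 8 genes, each other gene that could be named and each summed marker list, the most extreme of the 5 libraries of a group was compared with its nearest neighbour, as a share of the group's range on a log2 scale. Chance alone marks about 1 in 20 groups, and 16 of 213 were marked. None of the 24 that concern the 8 genes was among them. In healthy replicate 4, T cell RNA stood above the other healthy libraries: the summed T cell markers were at 77.6 CPM, Cd3g at 14.1 CPM, Lck at 25.9 CPM and Ctla4 at 3.54 CPM, while the synovial and connective tissue markers summed to 385 CPM, against 1760 CPM in the next lowest healthy library. Healthy replicate 3 stood above the other healthy libraries in the summed neutrophil markers (334 CPM), S100a8 (86.9 CPM), Retnlg (14.9 CPM) and the B cell gene Cd79a (3.62 CPM). Among CIA libraries, Cd80 was high in replicate 1 (3.27 CPM) and Itgax in replicate 5 (12.1 CPM), and Cd83 (2.48 CPM) and Cd55 (33.5 CPM) were low in replicate 4. Among CIA+F20 libraries, Cd3d was low in replicate 1 (0.228 CPM), Myh2 low in replicate 3 (5240 CPM) and the summed dendritic cell markers high in replicate 5 (38.4 CPM). Without healthy replicates 3 and 4 together, a setting chosen after seeing the data, the calls among the 8 genes numbered 8 for CIA against healthy, 6 for CIA+F20 against CIA and 0 for CIA+F20 against healthy.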

How the results depend on the processing

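Of 552 fold changes of the 8 genes recomputed under other settings, 520 kept direction and side of the threshold, 22 lost a call, 10 gained one and 0 changed sign. With the muscle marker score as a covariate, the calls fell to 315 genes and 4 of the 8 for CIA against healthy, and to 1 gene and 0 of the 8 for CIA+F20 against CIA; the cause was not tested. Fitting only the 2 groups of a comparison gave 2665 calls for CIA+F20 against CIA, where fewer samples set the spread. DESeq2 called 121 genes and 3 of the 8 for CIA+F20 against healthy. Leaving out 1 library at a time gave 6019 to 8001 calls for CIA against healthy (8 of the 8 each time), 2920 (without CIA replicate 2; 3090 without CIA+F20 replicate 4) to 6163 for CIA+F20 against CIA (4 to 8 of the 8), and 0 to 107 for CIA+F20 against healthy (0 to 2 of the 8), the 107 without healthy replicate 3. In the macrophage-relative tests the number differing was 0 to 1, 0 to 1 and 0 to 2 for CIA against healthy, CIA+F20 against CIA and CIA+F20 against healthy, all of the higher values without CIA+F20 replicate 4. With Cd68 alone as the marker it was 4 for CIA against healthy (all lower) and 8 for CIA+F20 against CIA (all higher), where the difference of H2-DMb1 turned from -0.04 to 0.78. Relative to H2-Aa, counting the ratio of H2-DMb1 to H2-DMa, it was 2 to 3, 1 (without CIA replicate 4) to 2, and 0 to 2. For CIA+F20 against healthy it was 0 without any 1 CIA+F20 library and 2 without healthy replicate 3. Without a CIA+F20 library the groups were still separate for H2-DMa minus H2-Aa. With groups of unequal size, full separation need not give the smallest exact p.

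Replicate numbers did not pair the libraries: 3 of 15 same-number correlations were above 0.1 (-0.395 to 0.243), and 3 of 15 matched best with their own number. With the replicate number as a block, the calls were 6566, 3478 and 0 genes and 8, 4 and 0 of the 8 in the 3 comparisons; Ciita (-0.94, adjusted p = 0.0565) and Cd86 (-0.77, adjusted p = 0.0775) were not called for CIA+F20 against CIA. Cd86 also lost that call with no low-count filter (adjusted p = 0.0624). Counts of 5 to 60 reads limit H2-Eb1, and 6 to 107 limit H2-DMb1.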
